A study of Mus musculus with 8 samples.

Results

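The red blood cells of mouse lung grafts, 322 cells that the authors' table of cells places in structural cluster 4, were described by their globin transcripts, by the transcripts kept beside them, and by donor type. The members are all cells whose structural cluster label carries the number 4, and they make up 5.84% of the 5514 structural cells and 1.55% of the 20778 cells of the study. Single cells came from 8 left lung grafts taken 1 month after orthotopic transplantation, each graft being 1 mouse and 1 library of 3′ transcript ends in droplets. In B6→B6 (n = 5) donor and recipient were male C57BL/6 (B6) mice, and in HLA→B6 (n = 3) the donor was a male C57BL/6 mouse with the human transgene Tg(HLA-A2.1)1Enge, and the recipient was again B6. The HLA→B6 grafts are the authors' model of bronchiolitis obliterans syndrome (BOS), and the B6→B6 grafts are its non-rejecting control. No mouse received immunosuppression. The study describes the donors as carrying a knock-in of human HLA-A2. A count is a number of transcript molecules, each told apart by its unique molecular identifier (UMI).

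Red blood cells carry oxygen on hemoglobin, a tetramer of alpha and beta globin chains with a heme in each. In mammals a maturing red cell expels its nucleus and becomes a reticulocyte, which still holds messenger RNA from the time of its making and then loses it along with its ribosomes and mitochondria. Heme synthesis, the ubiquitin and mitophagy machinery that clears organelles, the band 3 membrane protein, and enzymes against oxidative damage are the textbook products of the last erythroid stages. Lung tissue holds red blood cells because its capillaries hold blood.

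The libraries were not alike before any comparison of donors. Cell barcodes recurred between B6→B6 1, B6→B6 2, B6→B6 3 and HLA→B6 2 at 7.90 to 58.3 times the rate of the median pair of libraries in 5 of their 6 pairs, and no other pair passed 2.04 times (the remaining pair of these 4, B6→B6 3 with HLA→B6 2, stood at 1.91 times). These 4 libraries are called linked here, and B6→B6 4, B6→B6 5, HLA→B6 1 and HLA→B6 3 unlinked. Of the 322 cells, 12 shared a barcode with a cell of another library, against 1014 cells of the whole study, and 1 barcode was held by 2 cells of the cluster in different libraries. No cell of any type in the linked libraries had fewer than 139 genes, whereas in the unlinked libraries the poorest cell had between 2 and 13. Both donor types hold libraries of both kinds, so each comparison of donors was also made within them.

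The marker genes of the label were counted in the cluster. The authors clustered the cells on the same counts, so these values describe the label and do not test it. Hbb-bs, an adult beta globin, was found in 321 of the 322 cells (99.7%) and took 696261 of their 1615827 UMIs. Alas2, the enzyme of the first step of erythroid heme synthesis, was found in 297 cells (92.2%) with 3135 UMIs and led all genes that are not globins. Of the 5071 T cells, which should lack both, 4.04% held an Hbb-bs UMI and 0.907% an Alas2 UMI, at a median depth of 1648 UMIs against 5067.5 in the cluster. By mouse the Hbb-bs share of T cells was 0% in 5 libraries, 0.442% in HLA→B6 2, 1.30% in HLA→B6 3 and 13.4% in B6→B6 4. The counts appear to follow the authors' removal of free RNA, for which globins were marker genes, so these shares do not measure the free RNA of the grafts. Of the 322 cells, 321 also lay in cluster 10 of the clustering of all cells, which has 372 cells. The exception, a cell of HLA→B6 1, had 0 globin UMIs among 629 UMIs of 413 genes.

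The 4 adult globin genes lie in their locus pairs on chromosomes 7 and 11. On GRCm38, Hbb-bt spans chr7:103812524-103813996 and Hbb-bs chr7:103826534-103828096, both on the minus strand, and Hba-a1 spans chr11:32283511-32284465 and Hba-a2 chr11:32296489-32297298, both on the plus strand (GENCODE vM21). Alas2 spans chrX:150547375-150570638 on the plus strand. The members of each pair share much sequence. The longest run of identical bases was 430 between the Hbb-bs transcript (628 bases) and the Hbb-bt transcript (703 bases), and 415 between those of Hba-a1 (699 bases) and Hba-a2 (554 bases). Over the aligned bases the beta pair was 93.1% identical and the alpha pair 99.8%, so the split of UMIs within a pair, above all the alpha pair, is uncertain.

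The 150 bases before the RefSeq start of 3 globin genes are shown because these genes were high together in every mouse. Capitals mark 4 motifs, each searched on both strands. They are ATATAA, read as a TATA-like box. The next is CCAAT, named after its letters. A further one is CACCC, of the kind bound by Kruppel-like factors. The last is AGATAA, of the GATA type.
Hbb-bs: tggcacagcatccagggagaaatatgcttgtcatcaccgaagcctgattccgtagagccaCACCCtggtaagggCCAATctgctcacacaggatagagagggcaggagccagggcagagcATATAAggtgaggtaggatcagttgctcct
Hbb-bt: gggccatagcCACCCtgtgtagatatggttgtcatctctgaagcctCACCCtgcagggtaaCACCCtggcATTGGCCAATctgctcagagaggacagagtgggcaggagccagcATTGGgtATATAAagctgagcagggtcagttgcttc
Hba-a2: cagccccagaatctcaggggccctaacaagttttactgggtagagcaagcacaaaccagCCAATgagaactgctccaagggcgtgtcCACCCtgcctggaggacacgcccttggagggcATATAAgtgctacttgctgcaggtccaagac
On GRCm38.p6 these are chr7:103827929-103828078 and chr7:103813924-103814073 on the minus strand and chr11:32296342-32296491 on the plus strand. By the GENCODE gene spans the whole windows of Hbb-bs and Hba-a1, and parts of those of Hbb-bt, Hba-a2 and Alas2, lie inside the gene. ATATAA stood once in all 3 windows and in that of Hba-a1, and in 5.35% of the 32851 promoter windows of this length. CCAAT stood in the same 4 windows, 3 times in Hbb-bt, against 24.5% of all windows. CACCC was found in the 4 globin windows and in that of Alas2, 3 times each in Hbb-bt and Alas2, and in 37.4% of all. AGATAA, in 5.65% of all windows, was found in Alas2 and in none of the 4 globins. These are matches of letters within these windows only.

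Globins filled most of the RNA in these cells. Adult globins took 95.2% of all UMIs of the cluster, and the median cell was at 98.0% (5th percentile 65.2%). Per mouse the share was 93.0, 92.9, 82.5, 95.02 and 97.8% in B6→B6 1 to 5, and 93.5, 88.2 and 97.8% in HLA→B6 1 to 3. The lowest value was that of B6→B6 3, the values of the donor types overlapped, and all 4 unlinked libraries lay above all 4 linked ones (93.5 to 97.8% against 82.5 to 93.0%). That order rests on cells under 139 genes, which the linked libraries lack. In cluster cells of at least 139 genes the share was 72.6% in B6→B6 4, 77.0% in HLA→B6 1 and 80.4% in HLA→B6 3. B6→B6 5 had no such cluster cell. Embryonic Hbb-bh1 had 0 UMIs in all 322 cells, and the other embryonic genes of the list, Hbb-y, Hbb-bh2 and Hba-x, have no row in the table.

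Within the globins, Hbb-bs was the steadiest from mouse to mouse and Hbb-bt the least steady. Of 10000 cluster UMIs, Hbb-bs took 3819 to 4436 per mouse, Hba-a1 2255 to 2652, Hba-a2 1604 to 1963 and Hbb-bt 574 to 926. The highest mouse was at most 1.18 times the lowest for Hbb-bs and for Hba-a1, 1.22 times for Hba-a2 and 1.61 times for Hbb-bt. The minor adult beta gene Hbb-bt gave 18.2, 18.0, 13.1, 14.7 and 17.1% of the beta globin UMIs in B6→B6 and 13.0, 14.5 and 17.0% in HLA→B6. The groups overlapped throughout. Hba-a2 gave 41.6 to 43.9% of the alpha globin UMIs, and alpha UMIs stood at 0.828 to 0.934 per beta UMI. These are UMIs of 3′ ends, counted per molecule, so a longer transcript does not count more.

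**Figure D1:**
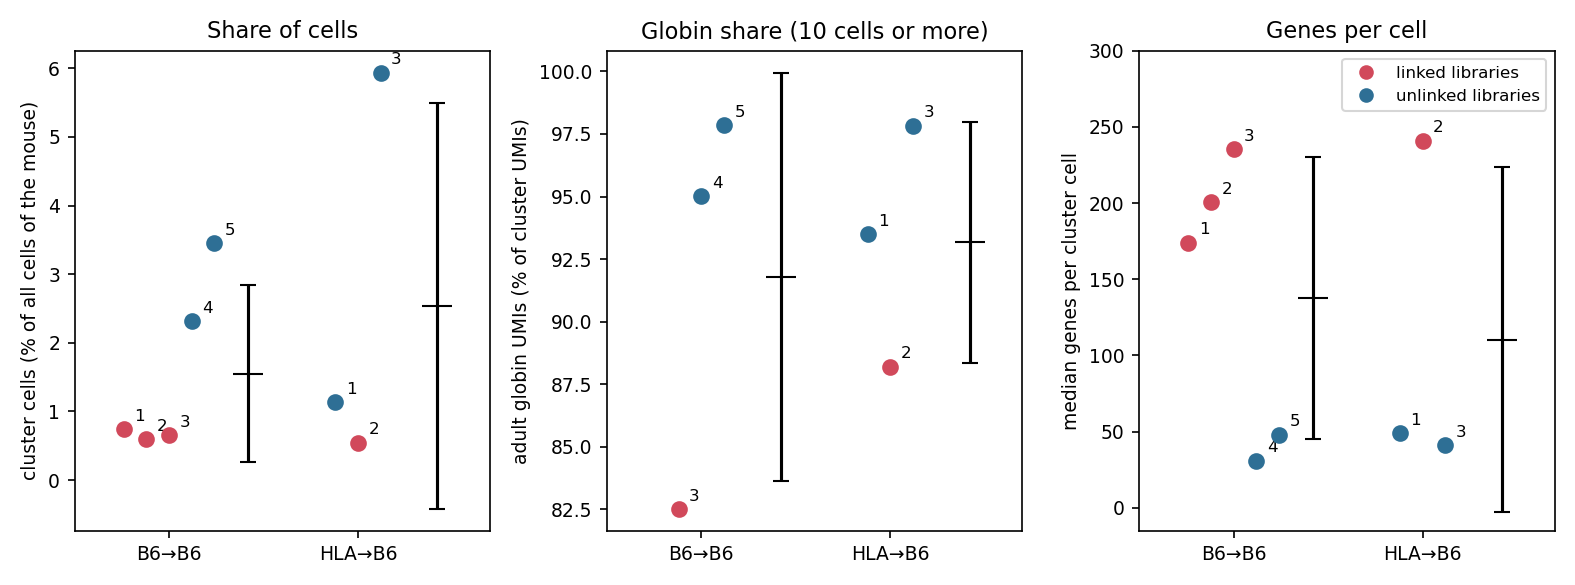
Each point is a mouse, numbered as in the text and coloured by library set, and the bar to its right gives the mean ± SD of the mice shown (n = 5 and 3, or 3 and 3 in the middle panel, which holds mice with at least 10 cluster cells). Axes are the cluster's percent of all cells, the globin percent of its UMIs (axis not from 0) and the median genes per cell. The donor types overlap in all 3 panels, while linked libraries lie between 174 and 241 genes per cell and unlinked libraries between 31 and 49.

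The number of red blood cells differed widely between mice. B6→B6 1 to 5 held 7, 8, 16, 95 and 30 cluster cells, or 0.739, 0.593, 0.657, 2.32 and 3.46% of their cells. HLA→B6 1 to 3 held 74, 18 and 74, or 1.13, 0.547 and 5.94%. Linked libraries had 0.547 to 0.739% and unlinked libraries 1.13 to 5.94%, with no overlap. That order rests on cells under 139 genes, which the linked libraries lack. Cluster cells of at least 139 genes numbered 14, 0, 18 and 4 in B6→B6 4, B6→B6 5, HLA→B6 1 and HLA→B6 3. These libraries had 4098, 868, 6544 and 1246 cells in all. The linked B6→B6 1 to 3 and HLA→B6 2 had 7, 8, 16 and 18 beside 947, 1350, 2434 and 3291 cells. On these numbers every linked share was above every unlinked one. The mean for B6→B6 was 1.55% ± 1.28 (SD, n = 5), against 2.54% ± 2.96 (SD, n = 3) for the grafts from HLA donors. The difference of 0.986 points was smaller than the spread between mice (exact two-sided permutation test, p = 0.536, adjusted p = 0.98 over 7 comparisons), with 0.0357 the smallest p that 56 splits allow. Within the sets of libraries the difference was 0.266 points (exact permutation p = 1), and there the smallest p possible is 0.0833. The direction turned with the denominator or the cells counted: as a percent of structural cells HLA→B6 was lower by 0.949 points, without HLA→B6 3 it was lower by 0.714 points, and with only the cells of at least 139 genes it was lower by 0.0786 points. Shares of cells in a dissociated graft count what was captured, and fewer red blood cells captured cannot be told apart from fewer present.

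Few genes were detected in a red blood cell at a depth above that of other cells. The cells had a median of 5067.5 UMIs and 45 genes, against 1085.5 UMIs and 704 genes in the other 5192 structural cells. At an equal 500 UMIs, the expected median was 12.0 genes in 317 cluster cells (5 shallower cells left out). It was 379 genes in 4749 other structural cells (443 left out). With 98.0% globin in the median cluster cell, few of 500 UMIs remain for other genes. The low number at equal depth therefore largely follows from the globin share and is no separate result. By mouse, median genes per cluster cell were 174, 200.5, 235.5, 31 and 48 in B6→B6 and 49, 241 and 41 in HLA→B6. The low values were those of the 4 unlinked libraries, of either donor type, although median UMIs of the cluster overlapped between the sets (2888.5 to 6843 in linked and 2985 to 8362 in unlinked libraries). At 500 UMIs the split remained, with 27.6 to 92.5 genes in the linked libraries and 9.38 to 12.6 in the unlinked ones. In the median cluster cell globins took 79.4 to 94.4% of UMIs in the linked libraries and 98.0 to 98.7% in the unlinked ones. That leaves fewer of 500 UMIs for other genes in the unlinked libraries. How far the split at equal depth follows from the globin share was not tested. The authors' removal of free RNA can also lower gene numbers, and its part in the split was not tested.

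The cluster fell into cells with very few genes and cells with many, with none between. In the unlinked libraries 237 of 273 cluster cells (86.8%) had 6 to 84 genes and the other 36 had 167 to 1604, while the 49 cells of the linked libraries had 146 to 1730. The line between them was set at 139 genes, the poorest cell of the linked libraries, after the data were seen. Outside the cluster, 36 of 12483 cells of the unlinked libraries lay under 139 genes. The 237 gene-poor cells numbered 81 in B6→B6 4, 30 in B6→B6 5 (all of its cluster cells), 56 in HLA→B6 1 and 70 in HLA→B6 3. The linked libraries hold no cell of any type under that line, so whether their grafts held such cells was not tested. The authors' removal of free RNA can lower the number of genes in a cell. All 17 cells of the study left under 200 UMIs lay in the unlinked libraries. Whether the gap in gene number, or its limitation to unlinked libraries, comes from that step was not tested.

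**Figure D2:**
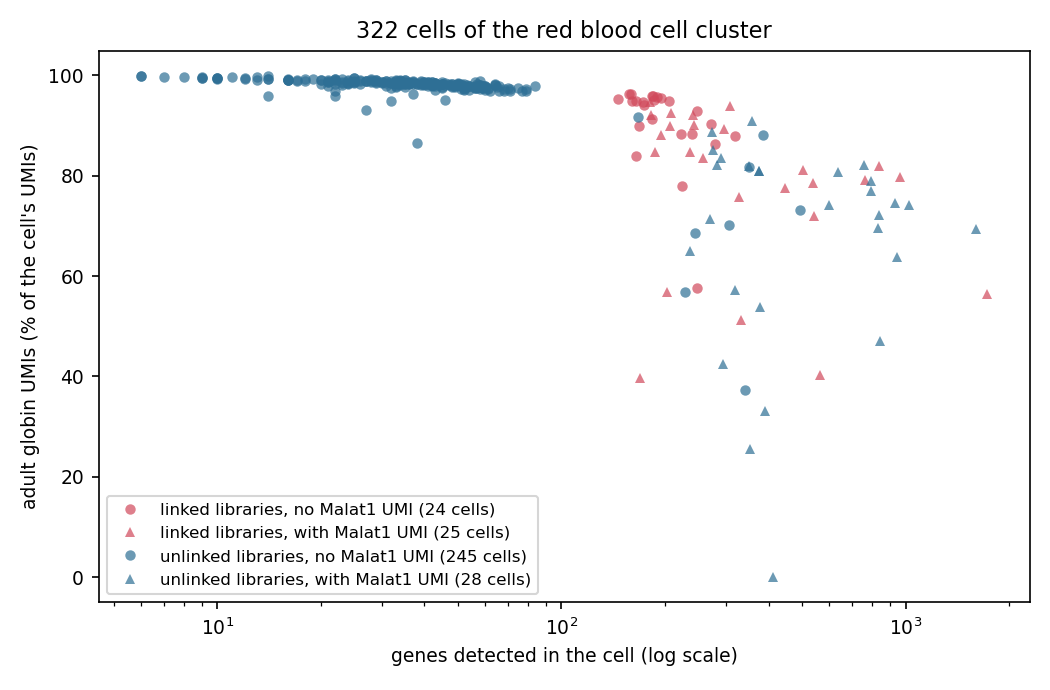
Each point is 1 of the 322 cells, placed by its number of detected genes (log axis) and the percent of its UMIs from adult globins, with colour for library set and triangles for cells with a Malat1 UMI. The 237 gene-poor cells form a band with 6 to 84 genes, all from unlinked libraries and without Malat1, and the cells from 146 genes upward hold all 53 cells with Malat1.

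The gene-poor cells, with UMIs of 1504 genes in all, had no detected UMI of the nuclear RNA Malat1, of ribosomal protein genes or of the mitochondrial genome. Over 22927 non-globin UMIs in 237 cells they had 0 UMIs of ribosomal protein genes, 0 of mitochondrial genes, 0 of Malat1 and 0 of the 10 endothelial markers. The authors' removal of free RNA can itself bring a count to 0, so no upper limit on these shares is given. The 36 gene-rich cells of the same libraries had 10.0% ribosomal protein and 1.17% mitochondrial UMIs of 29515 non-globin UMIs, and 28 of them held Malat1. In the 49 cells of linked libraries these shares were 8.66% and 3.17% of 25866, and 25 cells held Malat1. Globins took 98.2% of UMIs in gene-poor cells, 75.3% in gene-rich cells of unlinked libraries and 88.6% in the linked ones. The iron storage genes Ftl1 and Fth1 and the MHC class I genes B2m, H2-D1, H2-K1 and H2-T23 were also at 0 in the gene-poor cells.

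Of the non-globin UMIs of the gene-poor cells, 57.7% belonged to the erythroid lists, against 4.62% in gene-rich cells of the same libraries. These shares have unlike bases, since globins took 98.2% of UMIs in the gene-poor cells and 75.3% in those gene-rich cells. A low share there reflects more RNA of other genes. In gene-poor cells, red cell metabolism and antioxidant genes gave 22.0% of non-globin UMIs and reticulocyte maturation genes 17.2%. Heme synthesis genes gave 13.7% and membrane and skeleton genes 4.68%. The 25 leading genes held 71.1%, and 9 of them were in none of the lists. Alas2 was found in 225 of the 237 cells (94.9%), Mkrn1 (a RING finger protein of the makorin family) in 83.5%, Bpgm, which makes 2,3-bisphosphoglycerate and so sets the oxygen affinity of hemoglobin, in 81.9%, and Ube2l6 (a ubiquitin and ISG15 conjugating enzyme) in 81.4%. Per 10000 UMIs of all genes, Alas2 stood at 19.9 in gene-poor cells and 17.6 in gene-rich cells of the same libraries. In the same order Mkrn1 stood at 9.33 and 8.11, Ube2l6 at 7.08 and 5.85 and Bpgm at 11.8 and 5.02. Fech was at 3.79 and 3.60. Some listed genes differed more, such as Car2 at 2.69 and 0.418 (5 UMIs in the gene-rich cells) and Slc4a1 at 0.512 and 0. By mouse, Alas2 in gene-poor cells stood at 16.6 in B6→B6 4, 21.7 in B6→B6 5, 17.1 in HLA→B6 1 and 22.4 in HLA→B6 3. Bpgm in the same order stood at 9.50, 16.0, 7.40 and 13.2. For both genes B6→B6 5 and HLA→B6 3 were high and the other 2 low, 1 mouse of each donor type on either side. These lists were chosen with earlier results known, and the shares are descriptions.

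Heme synthesis was led by its erythroid enzyme. Alas2 stood at 23.2, 17.4, 16.8, 17.3 and 21.7 per 10000 cluster UMIs in B6→B6 and at 16.7, 15.2 and 22.1 in HLA→B6. Its highest mouse was 1.52 times its lowest, with donor types overlapping and linked and unlinked libraries interleaved. Fech, which puts iron into protoporphyrin, followed with 601 UMIs (0.802 to 6.11 per mouse), then the mitochondrial iron importer Slc25a37 with 135 and Urod, a decarboxylase of the pathway, with 40. Of the 12 genes of the list 10 had a UMI, and Uros and Ppox, both enzymes of the pathway, had none. On the side of iron, the transferrin receptor Tfrc, Steap3 and Slc11a2, all of the endosomal uptake route, had 0 UMIs. The ferritins Ftl1 (449 UMIs) and Fth1 (226) came only from cells of at least 139 genes, in linked and unlinked libraries.

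Red cell metabolism and defence against oxidation held 12 of 12 measured genes above 0. Bpgm had 1754 UMIs in 245 cells (76.1%), Gpx1, the selenium enzyme that reduces peroxides, 1691 UMIs in 192 cells and carbonic anhydrase Car2 535 in 85 cells. Bpgm per 10000 UMIs was 12.0, 10.3, 7.82, 9.15 and 16.0 in B6→B6 and 6.60, 4.97 and 13.0 in HLA→B6, and the groups overlapped. Car2 was the least even of the 15 leading genes apart from Malat1, with 16.6 in B6→B6 2 and 0.954 in HLA→B6 1.

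Of the genes of reticulocyte maturation, which clear organelles and proteins, all 16 measured were found. Mkrn1 had 1522 UMIs, Ube2l6 1119, the mitophagy receptor Bnip3l (Nix) 863 and the autophagy gene Gabarapl2 369. Bnip3l, which is needed to clear mitochondria from reticulocytes, stood at 11.5, 6.43, 5.27, 4.26 and 7.28 per 10000 in B6→B6 and 4.55, 4.65 and 5.12 in HLA→B6. Its 3 HLA→B6 values lay close together inside the range of the B6→B6 values. Ubiquitin itself (Ubb, 1383 UMIs) was at 15.7 to 29.1 in linked and 1.98 to 8.55 in unlinked libraries, without overlap. By number of genes, Ubb stood at 5.68 in gene-poor cells, 19.2 in gene-rich cells of unlinked libraries and 19.1 in linked ones.

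Membrane and skeleton genes were present at low levels, 18 of 20 measured. Cd24a, a surface glycoprotein that falls as red cells mature, had 569 UMIs, Epb41 (protein 4.1) 150 and Slc4a1 (the band 3 anion exchanger) 83, while Gypc and Icam4 had 0. Cd24a per 10000 was 5.32, 8.52, 1.81, 2.46 and 4.83 in B6→B6 and 2.68, 1.28 and 3.88 in HLA→B6, again overlapping. It stood at 3.47 in gene-poor cells, 3.09 in gene-rich cells of the unlinked libraries and 4.06 in the linked libraries.

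The listed genes of erythroid transcription and of cell division had few UMIs. The 10 transcription factors had 50 UMIs in all, of which Lmo2, a partner of GATA1, had 30, Foxo3 8, Ldb1 3 and Tal1 3. Gata1, the factor that directs erythroid genes, had 2 and Klf1, Bcl11a and Gfi1b had 0. The 10 genes of cell division had 22 UMIs, 15 of them of Stmn1, 3 of Top2a and 1 each of Rrm2 and Cdk1, and Mki67, Ccnb1, Birc5 and Mcm5 had 0. Outside that list of 10, and chosen after its values were seen, the mitotic ubiquitin conjugating enzyme Ube2c had 155 UMIs in 84 cells.

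**Figure D3:**
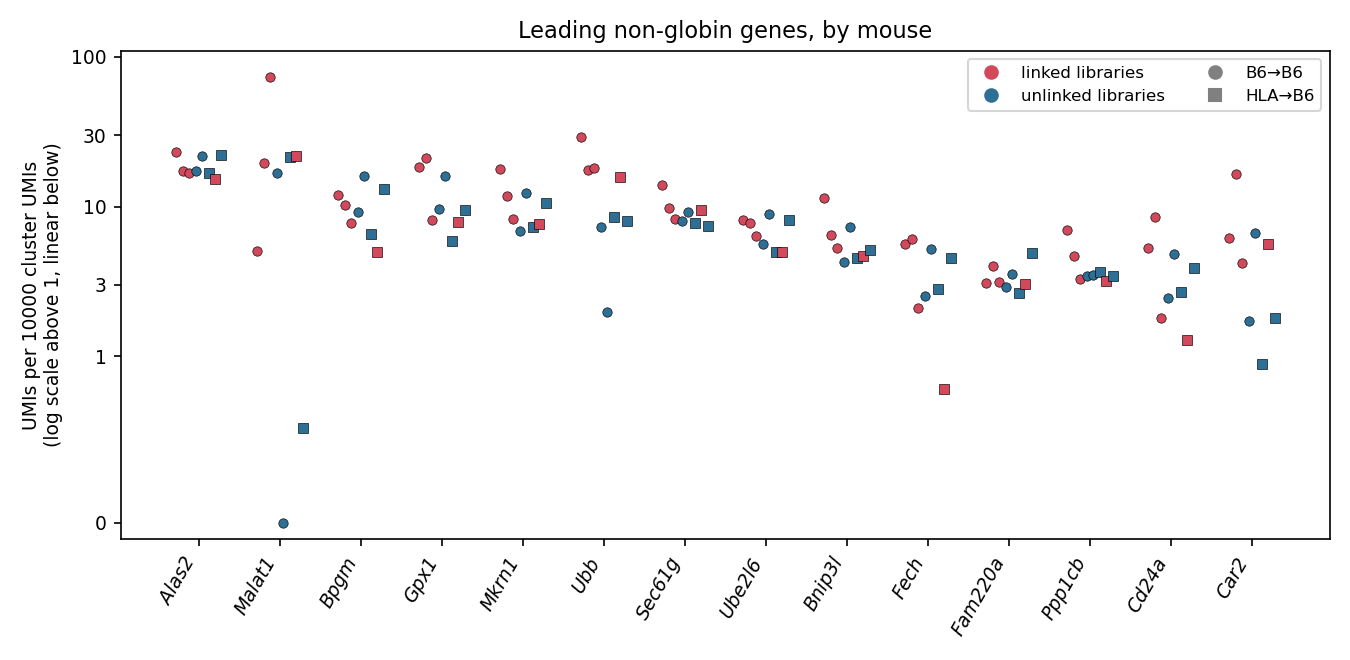
Levels of 14 of the 15 non-globin genes with most UMIs in the cluster, in UMIs per 10000 cluster UMIs (log scale above 1, linear below), with a point for each of the 8 mice, circles for B6→B6, squares for HLA→B6 and colours for library set. Alas2 stays between 15.2 and 23.2, Malat1 runs from 0 in B6→B6 5 to 73.9 in B6→B6 3, and Ubb is higher in all linked than in all unlinked libraries.

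The 15 non-globin genes with most UMIs held 24.5% of the 78308 non-globin UMIs. Besides those above they included Malat1 (2000 UMIs, 53 cells), Sec61g, a subunit of the protein translocation channel (1330 UMIs), Fam220a (586) and Ppp1cb, a catalytic subunit of protein phosphatase 1 (580). Ppp1cb stood at 3.31 to 7.002 per 10000 in B6→B6 and 3.21 to 3.67 in HLA→B6. Their share of a mouse's non-globin UMIs ranged from 9.41% in HLA→B6 2 to 60.6% in B6→B6 5.

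A further view takes the 15 genes of at least 20 UMIs whose share of non-globin UMIs stood highest above that in other structural cells. The authors clustered the cells on the same counts, so the ratios describe the cluster and test nothing. Hbq1b and Hbq1a, the theta globins, had 37 and 23 UMIs and ratios of 3284 and 1021 (1 and 2 UMIs in other structural cells). Apol11b stood at a ratio of 2618, Slc4a1 at 1842, Tspo2, an erythroid relative of the translocator protein, at 1420, Trim10, a tripartite motif protein of terminal erythroid cells, at 1078, and Epb42, the protein 4.2 of the red cell skeleton, at 1021. Rec114, a gene known from meiotic recombination, was found in 111 cells with 203 UMIs (ratio 948). A pair of genes of the mitotic apparatus were also among the 15, Nusap1 (69 UMIs in 46 cells) and the formin Diaph3 (76 UMIs in 46 cells), beside Mki67 at 0. Most of their UMIs, 50 and 68, lay in the gene-poor cells. The ratio was 724 for Bpgm, 579 for Alas2 and 510 for Paqr9.

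**Figure D4:**
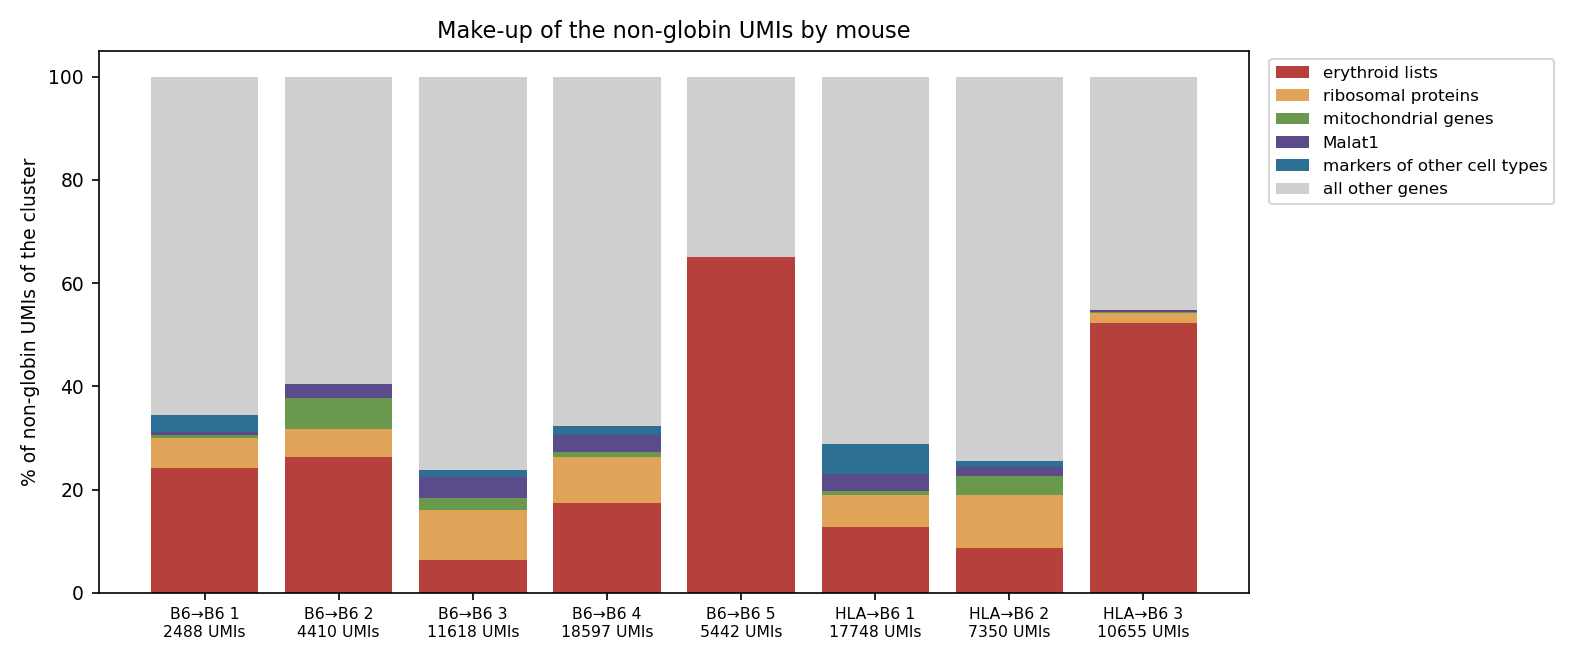
Stacked bars give, for each mouse, the percent of the cluster's non-globin UMIs (number under the bar) in the erythroid lists, ribosomal protein genes, mitochondrial genes, Malat1, markers of 11 other cell types and all other genes. Erythroid lists take 65.1% in B6→B6 5 and 52.2% in HLA→B6 3, and 6.43 to 26.3% in the other 6 mice.

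The rest of the non-globin RNA differed from mouse to mouse more than from donor to donor. Ribosomal protein genes took 5.79, 5.44, 9.51, 8.86 and 0% of non-globin UMIs in B6→B6 and 6.19, 10.2 and 2.05% in HLA→B6. Mitochondrial genes took 0.523, 5.96, 2.35, 0.973 and 0% against 0.778, 3.69 and 0.235%. The 0 values are those of B6→B6 5, over 5442 non-globin UMIs, and here too a count can have been brought to 0 by the removal of free RNA. Malat1, a long RNA kept in the nucleus, was found in 42.9, 50, 50, 12.6 and 0% of the B6→B6 cells and in 20.3, 55.6 and 1.35% of the HLA→B6 cells, so it was highest in the linked libraries of both donor types. In T cells, which have a nucleus, 98.8% held it.

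Cells with Malat1 carried markers of other cell types. The 53 cells with Malat1 had a median of 78.9% globin and 357 genes, and 60.4% of them held an endothelial UMI. The 269 cells without it had 98.3% globin and 40 genes, and 4.83% of them held one. Their Alas2 levels were near each other, 18.2 and 19.6 per 10000 UMIs. All 10 endothelial markers were found, with 593 UMIs in 45 cells, led by Ramp2 (115), Cldn5 (103), Tmem100 (73) and Egfl7 (69), and Pecam1 had 49. Their summed level was 0 to 21.7 per 10000 in B6→B6 and 0.122 to 10.1 in HLA→B6. Neutrophil markers had 835 UMIs in 14 cells, with S100a8 (438), S100a9 (329), Retnlg (49) and Csf3r (10) in front. They stood at 27.8 per 10000 in HLA→B6 1, 21.3 in B6→B6 1, 0.0268 in B6→B6 4 and 0 in the other 5 mice. At least 3 of these UMIs were held by 10 of the 74 cells of HLA→B6 1 and by 1 of the 7 cells of B6→B6 1. Monocyte markers had 115 UMIs, 99 of them Lyz2, with Csf1r at 7, Ms4a6c at 6 and Cx3cr1 at 3, and Fcgr1 and Ccr2 at 0. Epithelial markers had 52 UMIs, with Scgb1a1 at 37, Sftpc at 10, Sftpa1 and Sftpb at 2 each, and Epcam, Krt18 and Cdh1 at 0.

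Markers of lymphocytes, fibroblasts, platelets and alveolar macrophages were at or near 0. The B cell markers Cd79a, Cd79b and Ms4a1 and the 6 fibroblast markers, Col1a1, Col1a2, Col3a1, Dcn, Lum and Pdgfra, had 0 UMIs. The T cell receptor complex genes Cd3e and Cd3g had 0, with Trbc2 at 6, Cd3d at 4 and Trac at 1. Plasma cell markers had 36 UMIs (Igkc 24, Ighm 10, Jchain 2, Mzb1 0) and NK cell markers 7 (Nkg7 5, Gzma 1, Klrb1c 1, Ncr1 0). Alveolar macrophage markers had 6 (Chil3 2, Ear2 2, Marco 1, Plet1 1, with Ear1 and Mrc1 at 0), and platelet markers 21 (Pf4 7, Ppbp 7, Itga2b 3, Gp9 2). The nuclear RNAs Neat1 and Kcnq1ot1 had 18 and 3.

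The HLA→B6 cells were then compared with the B6→B6 cells over the 3 mice of each group that had at least 10 cluster cells (B6→B6 3, 4 and 5, and all HLA→B6 mice). No summary measure differed beyond the spread between mice. The globin share for B6→B6 was 91.8% ± 8.16 (SD, n = 3), against 93.2% ± 4.82 (SD, n = 3) for HLA→B6, a difference of 1.38 points (exact permutation p = 0.9). Hbb-bt was 14.95% ± 2.05 (SD, n = 3) and 14.8% ± 2.03 (SD, n = 3) of beta globin (exact permutation p = 0.7). Ribosomal protein genes took 6.12% ± 5.31 and 6.15% ± 4.08 of non-globin UMIs (SD, n = 3 each, exact permutation p = 1), mitochondrial genes 1.11% ± 1.18 and 1.57% ± 1.86 (exact permutation p = 0.7), and markers of the 11 other cell types 0.984% ± 0.867 and 2.38% ± 3.03 (exact permutation p = 0.7). Adjusted over the 7 comparisons every p was 0.98 or 1. With 3 mice against 3 the test cannot go below 0.1, so a miss of the threshold does not show that the groups were alike.

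Across genes, edgeR's quasi-likelihood test on the summed counts called 0 of 232 tested genes higher and 0 lower (0% of the background in each direction), with 0 genes at an unadjusted p under 0.05 and 0.134 the smallest. DESeq2 also called 0, with 0 genes at an unadjusted p under 0.05. The median standard error of a log2 fold change was 1.85. The scale itself was not settled: over the 232 genes the median log2 fold change was 0.54 with TMM scaling, -0.23 with library sizes alone and -0.15 with DESeq2. Hbb-bs stood at 1.23 ± 1.22 (standard error) with TMM and 0.00 with library sizes alone, and Alas2 at 1.37 ± 1.37 and -0.05. No direction is therefore given for any globin or leading erythroid gene. On the scale of 10000 cluster UMIs, Alas2 of the B6→B6 mice was 18.6 ± 2.66 (SD, n = 3), that of the HLA→B6 mice 18.0 ± 3.62 (SD, n = 3), and Hbb-bs 4204 ± 336 and 4203 ± 269 (SD, n = 3 each).

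**Figure D5:**
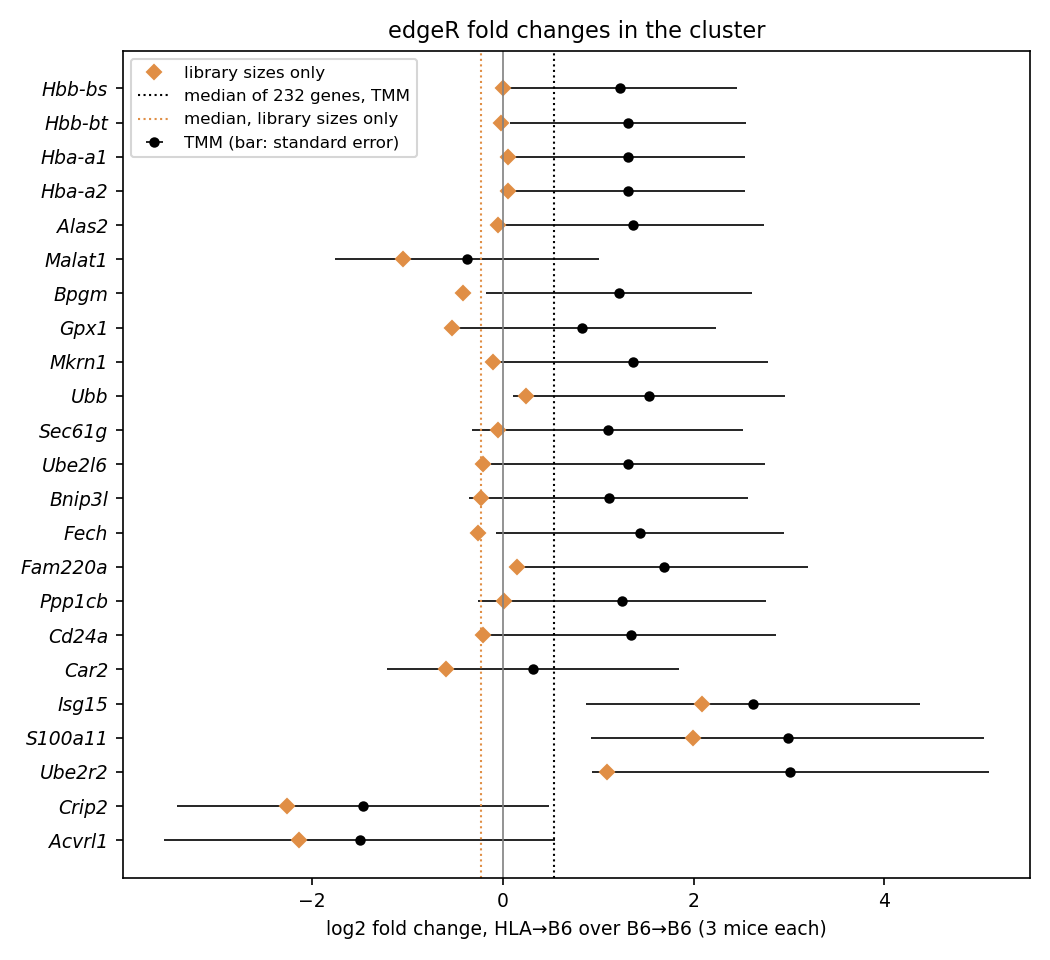
For the globins, 14 of the 15 leading genes and 5 of the 6 genes with the smallest p, dots give edgeR's log2 fold change of HLA→B6 over B6→B6 (3 mice each) with TMM scaling and bars its standard error, and diamonds the value with library sizes alone. Dotted lines mark the medians of the 232 genes (0.54 and -0.23), and the bars of the globins and of the leading genes shown cross the TMM median.

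The 3 smallest p values above the median belonged to Isg15, a ubiquitin-like protein induced by interferon, the calcium-binding protein S100a11, and the ubiquitin conjugating enzyme Ube2r2. None passed the test (adjusted p = 1.00 for each by edgeR). Isg15 stood at 0.301, 0.428 and 0.910 per 10000 UMIs in the 3 B6→B6 mice and at 0.770, 5.14 and 1.26 in HLA→B6, a log2 fold change 2.09 above the median. The 2 mice that were left out for few cells, B6→B6 1 and B6→B6 2, had 2.80 and 2.41, so the groups overlapped in either case. S100a11 was at 0.752, 0.0535 and 0 against 2.09, 0.802 and 0. Among the smallest p values below the median were those of Crip2 and Acvrl1 (an endothelial receptor of the BMP pathway), each with 0 UMIs in B6→B6 5 and its highest level in B6→B6 3, at 2.71 and 2.56. Ube2r2 was at 0.602, 0.0803 and 0 in B6→B6 and 0.477, 0.321 and 0.490 in HLA→B6.

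The interferon-stimulated list had 377 UMIs, 181 of them Isg15, with Ifitm3 at 129 and Bst2 at 27. Its summed level was 0.910 to 4.51 per 10000 in B6→B6 (all 5 mice) and 1.49 to 10.4 in HLA→B6. The MHC class I list had 617 UMIs, with B2m at 278, H2-D1 at 226, H2-K1 at 94 and H2-T23 at 19, and stood at 0 to 19.6 and 0.245 to 15.9. Both overlapped between donors. Of the 8 and 4 genes of these lists 2 and 3 were tested and 0 called.

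In the levels of 3 mice against 3, groups did not overlap for 0 genes with HLA→B6 higher and for 2 of 232 (0.862%) with HLA→B6 lower. These were Slc25a37, at 0.752, 1.07 and 1.07 in B6→B6 and 0.403, 0.642 and 0.734 in HLA→B6, and Pabpc1, which binds the poly(A) tail of messenger RNA, at 2.71, 2.52 and 6.02 against 1.80, 2.41 and 1.53 (exact permutation p = 0.1 for each, the smallest possible). They were named after their values were seen. The 2 mice left out for few cells, B6→B6 1 and B6→B6 2, had 1.40 and 1.13 for Slc25a37 and 9.52 and 11.3 for Pabpc1, so neither gene overlapped with all 5 B6→B6 mice either. Slc25a37 was 0.07 above the median log2 fold change with TMM and 0.48 below it with library sizes alone. Pabpc1 was below the median on either scale, at -0.46 relative to it with TMM and -0.75 with library sizes alone. For both genes edgeR gave an adjusted p of 1.00. By list, 0 genes were called among the 4 adult globins, 3 of heme synthesis, 2 of iron, 6 of membrane and skeleton, 10 of reticulocyte maturation, 8 of metabolism and 9 endothelial markers that were tested. The median log2 fold change with TMM was 1.34 for reticulocyte maturation and -0.39 for the endothelial markers, beside 0.54 for all genes. Relative to the median of all genes, reticulocyte maturation was 0.80 above with TMM and 0.07 above with library sizes alone, and the endothelial markers stood at -0.92 and -0.51.

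Globin UMIs were also counted outside the cluster, which held 88.5% of all globin UMIs of the study. Of the 20456 other cells 4.48% held a globin UMI. In all, 41 of them were more than 50% globin and held 74.6% of the globin UMIs outside. By the authors' labels 17 of the 41 lay in the structural cluster named T cells (6), 12 in B cells (10) and 5 among alveolar macrophages. Their median genes were 792, 789.5 and 1056, against 45 in the red blood cell cluster. Globins took 0.457, 0.215, 0.780, 0.747 and 1.54% of the UMIs of other cells in B6→B6 and 0.257, 0.244 and 0.427% in HLA→B6, with overlap between the groups. The mean of 0.748% ± 0.500 (SD, n = 5) for B6→B6 stood beside 0.309% ± 0.102 (SD, n = 3), a difference of -0.439 points that did not pass the test (exact two-sided permutation p = 0.179, adjusted p = 0.98). Without the 41 cells over 50% globin the difference was -0.0114 points (exact permutation p = 0.857), and the share in B6→B6 5 was 0.0129% in place of 1.54%. Cells outside with a globin UMI made up 0.745, 3.65, 1.08, 10.3 and 6.09% in B6→B6 and 0.541, 1.59 and 24.1% in HLA→B6, the highest being HLA→B6 3.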

How the data were processed

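Counts, made by the authors with Cell Ranger on mm10, were deposited as whole UMIs per gene and cell (17921 genes, 20778 cells), with a table of cells that gives mouse, condition and cluster. The authors state that barcodes with fewer than 200 UMIs and genes in fewer than 3 cells were left out, that Seurat was used for clustering, and that free RNA was removed with SoupX, for which the 4 adult globins were among the marker genes. The deposited table holds 17 cells under 200 UMIs, down to 2 UMIs and all in the 4 unlinked libraries, and 28 genes found in fewer than 3 cells. Its counts therefore appear to have been lowered after those limits were set. The authors do not state whether the deposited counts follow SoupX. They are taken here as counts after SoupX, and on that reading a count of 0 can come from that step. Doublets were not called, and 0 columns of values were left unused.

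Cells were assigned to mice by the table of cells and counts of the cluster were summed per mouse (35706 to 490251 UMIs). Levels are UMIs per 10000 UMIs of the cluster, globins included. Mice with at least 10 cluster cells entered comparisons of levels. Means were compared by exact two-sided permutation of mice, with p adjusted by Benjamini-Hochberg, and genes by edgeR 4.0.16 (TMM, filterByExpr, quasi-likelihood F test, adjusted p under 0.05), with DESeq2 1.42.0 as an alternative, in R 4.3.3 and Python 3.11.15. The edgeR step was tested on simulated data. With a small simulated spread it recovered most changed genes, with false calls above the threshold under TMM, and with the spread estimated in the cluster it recovered none. Sequences are from RefSeq (GRCm38.p6) and GENCODE vM21.

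Named genes are the 4 adult globins and Alas2, the 15 non-globin genes with most UMIs, the 15 with the highest ratio to other structural cells, up to 4 members of each of 23 lists and list members at 0, and the 3 smallest p on each side of the median fold change. The 25 leading genes of gene-poor cells, and Slc25a37 and Pabpc1 in the comparison of donors, were chosen after their values were seen. Values of some genes that this rule names are not reported here. The members and lists were chosen with earlier results of these data known. Each library was taken as 1 mouse, and p values measure the spread between these libraries.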

Additional observations from a re-analysis of the deposited data

Results flagged for a closer look

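Over the 5 B6→B6 mice, 43 measures were examined for 1 mouse far from the other 4, and 5 passed, where chance passes about 1 in 20. B6→B6 5 had 29.1% of its 103 structural cells in the cluster, against 2.15 to 8.36% in the other 4 mice. B6→B6 3 had 1604 Hba-a2 UMIs per 10000, below the 1846 to 1909 of the others, and 73.9 Malat1 UMIs per 10000, above their 0 to 19.5. B6→B6 2, with 8 cluster cells, had 4.502 Apol11b UMIs and 1.13 Epb42 UMIs per 10000, against at most 0.642 and 0.280 in the others.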

How the results depend on the processing

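No comparison of HLA→B6 with B6→B6 passed its threshold in any alternative. Many of the alternatives could not pass, so this does not show that the results are stable. With 3 mice against 3 the smallest permutation p is 0.1, and fewer mice raise it. Within the sets of libraries it is 0.0833 or 0.167. In none of 19 fits by edgeR or DESeq2 was a gene called. These included the fits with each mouse left out in turn and with library set as a term. The fit with no filter (40 of 8400 genes at an unadjusted p under 0.05) was also among them. Signs of the small differences (HLA→B6 minus B6→B6, in points) did turn. For the percent of all cells it was -0.949 among structural cells and -0.0786 with cells of at least 139 genes. With at least 20 cells per mouse it was -0.776 for globins and -0.309 for ribosomal protein genes, which were at -1.23 by the median over cells. It was 0.267 for Hbb-bt within library sets, -0.395 for mitochondrial genes over all mice, and 0.0143 for globins outside the cluster in T cells only. The cause was not tested. Leaving out each mouse in turn gave -0.714 to 1.98 for the percent of all cells, -3.26 to 4.402 for globins, -1.20 to 0.982 for Hbb-bt, -3.04 to 2.08 for ribosomal protein genes, -0.602 to 1.12 for mitochondrial genes, -0.322 to 2.52 for markers of other cells and -0.572 to -0.241 for globins outside. The numbers of the mice mark no shared animal or day, and deviations of same-numbered mice correlated at -0.258, -0.119 and -0.743 over 64 genes. A replicate block over numbers 1 to 3, with at least 5 cells per mouse, called 0 of 119 genes, as did the fit without it (0 of 64). With 10 cells only number 3 was shared, so the planned block was not run. The planned correlation over mice was not run, since linked and unlinked libraries form separate clusters of 4 mice. Within-set values other than for the percent of all cells, the cells of at least 139 genes, all mice, the set term, 5 cells, the block, the cells without Malat1 and globins outside without the cells over 50% globin (-0.0114) were chosen after seeing the data. The 7 to 95 cluster cells per mouse limit the precision.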
